A study of Mus musculus with 18 samples.

Results

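miR-22 is a single-copy mouse microRNA with 2 mature arms, mmu-miR-22-3p and mmu-miR-22-5p, and both were followed here from the freshly isolated inner cell mass (ICM) of the blastocyst through its outgrowth in culture to embryonic stem cells (ESC). The members were chosen by name: 2 rows of the 1390 mature miRNAs in the deposited table, read in all 18 small-RNA libraries. The blastocysts came from NMRI mice at embryonic day 3.5. The ICM was freed of trophectoderm by immunosurgery, and outgrowths and ESC were kept on gelatin in N2B27 medium with leukaemia inhibitory factor (LIF) and R2i. R2i is the pair of PD0325901, an inhibitor of the kinase MEK, at 1 µM and SB431542, an inhibitor of activin/TGF-beta type I receptors, at 10 µM, so every cultured group shared both agents and the ICM was not cultured. The 9 groups of 2 libraries were the ICM, outgrowths cultured for 0.5, 1, 2, 3 or 5 days, and ESC carrying the codes P2, P4 and P15. For the ESC libraries, title and description give different passages, so the codes serve as names and no order among them is read. No genotype, line, clone or number of embryos is given for the libraries, and no label states that 2 replicates are independent embryos or cultures. The p-values therefore measure only the spread between these libraries, which may be technical.

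A microRNA is cut from a hairpin precursor into a duplex of a 5p and a 3p strand, and one strand is usually kept in Argonaute while its partner is degraded. The kept strand finds messenger RNAs mainly through its seed, bases 2 to 8. miR-22 is conserved among vertebrates, is abundant in heart and skeletal muscle, and its 3p arm is known to repress Tet genes, which encode the enzymes that oxidise methylated DNA.

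The mature arms are shown first because the difference between them runs through all the values, with the seed in capitals (RefSeq, GRCm38.p6, 5′ to 3′).
mmu-miR-22-3p: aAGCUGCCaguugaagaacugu
mmu-miR-22-5p: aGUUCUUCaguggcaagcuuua
The hairpin is shown to place both arms in their precursor, with the mature arms in capitals.
mmu-mir-22 hairpin: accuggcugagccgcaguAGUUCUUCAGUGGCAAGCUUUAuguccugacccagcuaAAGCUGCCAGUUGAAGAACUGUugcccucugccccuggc
Both arms are 22 bases long, and the hairpin has 95. The hairpin lies at chr11:75463716-75463810 on the plus strand, with the 5p arm at chr11:75463734-75463755 and the 3p arm at chr11:75463772-75463793. In the GENCODE annotation of GRCm38 the hairpin sits inside an exon, not an intron: exon 2 of the noncoding host gene Mir22hg, at chr11:75463693-75463857 in the longer transcript. None of the other mouse mature miRNAs among the 1679 in RefSeq shares bases 2 to 8 with either arm, so miR-22 has no seed family (0 seed mates for the 3p arm and 0 for the 5p arm).

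The values are normalized counts, rounded to whole numbers, and their totals were 602238 to 1265117 per library. The spacing of the low values gave 1.73 to 5.44 normalized counts per read in the 10 libraries of the ICM and days 0.5 to 3, or 111000 to 370000 reads. The 8 libraries of day 5 and the ESC showed no such spacing and held at least 2320000 to 3020000 reads if their lowest listed value stands for 5 reads. Depth thus moved with stage. For miR-22-3p this mattered little for counting: it had 3540 to 10500 reads in the shallower libraries, a Poisson error of 0.975% to 1.68%, and at least 21400 to 74800 reads in the deeper ones. For miR-22-5p, the lowest value that the shallower libraries list lay above every value it had in the deeper ones.

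miR-22-3p was abundant at every stage. In normalized counts it stood at 21399 and 21321 in the ICM, 14161 and 17094 at day 0.5, 13837 and 13489 at day 1, 19026 and 17758 at day 2, 19488 and 19005 at day 3, and 17184 and 14250 at day 5. In ESC it stood at 16774 and 16505 under code P2, 21556 and 22445 under P4, and 10944 and 10712 under P15. All 10 outgrowth libraries lay below both ICM libraries, while the ESC libraries fell on both sides of the ICM: P4 above it, P2 and P15 below it. As a share of all normalized counts, miR-22-3p made up 3.55% and 3.41% in the ICM, 1.82% to 2.84% in the outgrowths, 1.78% to 2.48% in P2 and P4, and 0.919% and 0.847% in P15. On this scale all ESC and outgrowth libraries lay below the ICM. It was the 6th most abundant miRNA in both ICM libraries, ranked 7th to 13th in the outgrowths and in P2 and P4, and was 18th in both P15 libraries.

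**Figure D1:**
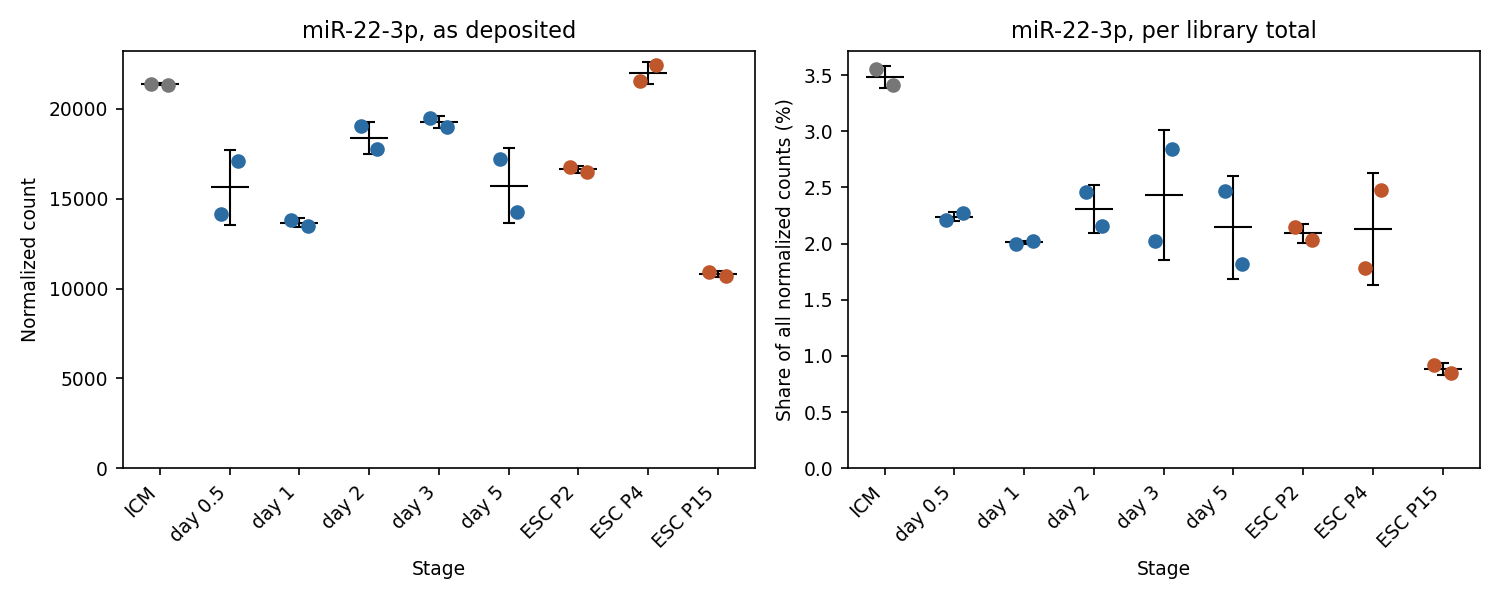
miR-22-3p in each library by stage, as normalized count (left) and as a percentage of the library's total (right). Points are libraries, long bars the mean of 2 and whiskers the SD. The ICM stands above every outgrowth library on both scales, and ESC P15 is the lowest group on both, while ESC P4 is the highest group only in the left panel.

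The order of the 9 group means, low to high, was ESC P15 at 10828 ± 164, day 1 at 13663 ± 246, day 0.5 at 15628 ± 2074, day 5 at 15717 ± 2075, ESC P2 at 16640 ± 190, day 2 at 18392 ± 897, day 3 at 19246 ± 342, ICM at 21360 ± 55.2 and ESC P4 at 22000 ± 629 normalized counts (SD, n = 2 each). Neighbours in this order whose libraries overlapped were day 0.5 with day 5, day 5 with ESC P2, and day 2 with day 3. The other neighbours did not overlap. The 2 replicates of a group differed by 0.365% of their mean in the ICM and by 18.8% and 18.7% at days 0.5 and 5. The ICM gap was 0.183 times its counting error, and those of days 0.5 and 5 were 10.4 and at least 30.2 times theirs. A moderated F test in limma over the 9 groups gave F = 20.2 with an adjusted p of 6.48e-05, and 66.5% of the 811 miRNAs tested passed that test.

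Fresh ICM held more miR-22-3p than its cultured outgrowths. The outgrowths averaged 16529 ± 2373 normalized counts (SD, n = 10; lowest 13489, median 17139, highest 19488) and the ICM 21360 ± 55.2 (n = 2), a log2 difference of -0.38 (SE 0.08, 95% interval -0.56 to -0.21, limma adjusted p = 0.00290). The libraries of the groups did not overlap. In this comparison 34.9% of all miRNAs tested were called, and the median miRNA moved by -0.31, so miR-22-3p stood -0.07 from the median. With all libraries rescaled to the same total its log2 difference was -0.66 (adjusted p = 0.00548), -0.13 from a median of -0.52. The 8 outgrowth libraries of days 0.5 to 3 also all lay below both ICM libraries. They held an inferred 177000 to 370000 reads, and the ICM libraries 111000 and 202000, so depth was closer here but not matched. The call was lost with array weights (adjusted p = 0.397) and without limma's trend and robust options (adjusted p = 0.0999).

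The difference was present at the first time point sampled. Day 0.5 libraries averaged 15628 ± 2074 and ICM libraries 21360 ± 55.2 (SD, n = 2 each), a log2 difference of -0.46 (SE 0.10, 95% interval -0.68 to -0.23, limma adjusted p = 0.0121), where 11.3% of miRNAs were called. The call was lost after rescaling to the same total (-0.63, adjusted p = 0.0596), with array weights, without the trend and robust options, in a fit of these 4 libraries alone, and without ICM replicate 1 or day 0.5 replicate 1 (adjusted p of 0.0520 and 0.0875).

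Between successive outgrowth days only the step to day 2 passed the threshold for miR-22-3p. Day 1 was -0.19 from day 0.5 on the log2 scale (95% interval -0.41 to 0.04, limma adjusted p = 0.263), with 15.2% of miRNAs called. No libraries overlapped between day 1 and day 0.5, between day 2 and day 1, or between day 5 and day 3, so lack of overlap sets none of these steps apart. Day 2 was 0.43 above day 1 (95% interval 0.20 to 0.65, adjusted p = 0.0204), with 10.9% called. That call was lost at equal totals (0.20, adjusted p = 0.651), with quantile normalization (0.18, adjusted p = 0.610), with array weights (adjusted p = 0.113), without the trend and robust options (adjusted p = 0.326), in a fit of the 4 libraries alone (adjusted p = 0.0619) and without any one of the 4 libraries (adjusted p of 0.0546 to 0.120). Day 3 was 0.07 from day 2 (95% interval -0.16 to 0.29, adjusted p = 1.00; 4.07% called). Day 5 was -0.30 from day 3 (95% interval -0.52 to -0.07, adjusted p = 0.0708; 18.4% called), where the median miRNA stood at 0.58. Depth rose at the same step: the lowest listed values were 24 and 9 at day 3 and 1 in both day 5 libraries. Depth and stage therefore cannot be told apart in that median and that share called. The step from day 3 to day 5 passed the threshold without day 5 replicate 1 (-0.43, adjusted p = 0.0219) or without either day 0.5 library.

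ESC as a whole held less miR-22-3p than the ICM, but the size of the difference was set by the ESC code. The 6 ESC libraries averaged 16489 ± 5007 normalized counts (SD; lowest 10712, highest 22445) and the 2 ICM libraries 21360 ± 55.2, with overlapping ranges since both P4 libraries exceeded the ICM. The log2 difference was -0.43 (SE 0.08, 95% interval -0.62 to -0.25, limma adjusted p = 9.00e-04), and 55.2% of miRNAs were called in this comparison, where the median miRNA stood at 0.01. A larger absolute change was seen in 89.9% of the miRNAs tested. Rescaled to equal totals, the difference was -1.15 (adjusted p = 8.19e-05), -0.67 from the median of -0.48 on that scale. Without the P15 libraries it was -0.16 (adjusted p = 0.166), and it also lost its call with array weights (adjusted p = 0.155) and without the trend and robust options (adjusted p = 0.0574). The SE comes from the spread within groups of 2, so the differences among the ESC codes do not enter it. Sequencing depth and stage cannot be told apart in this comparison, because all ESC libraries were deeper than both ICM libraries.

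ESC and outgrowths differed little in the deposited values. ESC averaged 16489 ± 5007 (n = 6) and outgrowths 16529 ± 2373 normalized counts (SD, n = 10), a log2 difference of -0.05 (95% interval -0.16 to 0.07, limma adjusted p = 0.465). In this comparison 51.8% of miRNAs were called and the median stood at 0.28, with all ESC libraries deeper than those of days 0.5 to 3. The ESC codes stood on opposite sides of the outgrowth mean: without P15 the difference was 0.22 (adjusted p = 0.0144), and without P4 it was -0.29 (adjusted p = 0.00394). On the scale of equal totals it was -0.49 (adjusted p = 0.00188). As a share of the library, miR-22-3p was 1.70% ± 0.672 in ESC (n = 6) and 2.23% ± 0.299 in outgrowths (n = 10), a difference of -0.527 percentage points (exact two-sided permutation test over 8008 splits, p = 0.0446, Benjamini-Hochberg over the 2 arms 0.0892). Libraries of one code or day are not independent of each other, and without P15 the difference in share was -0.118 points (exact permutation p = 0.505). It also missed the threshold without day 5 and without any one of 9 of the 16 libraries, which included both P15 libraries (-0.371 and -0.356, exact permutation p of 0.135 and 0.140).

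The ESC codes differed in miR-22-3p, and P15 was the lowest. The log2 difference was -1.02 for P15 against P4 (SE 0.10, 95% interval -1.25 to -0.80, limma adjusted p = 1.48e-05), which is 2.03-fold lower in P15. It kept its call in every alternative run. P15 was also below P2, by a log2 difference of -0.62 (95% interval -0.84 to -0.40, adjusted p = 7.90e-04), a call lost without the trend and robust options (adjusted p = 0.0697). The share of miRNAs called was 16.5% for P15 against P4 and 21.3% for P15 against P2. At equal totals these differences were -1.25 and -1.24 (adjusted p of 6.55e-04 and 5.82e-04). P4 was above P2 by 0.40 (adjusted p = 0.0169; 17.8% called), but at equal totals by 0.01 (adjusted p = 1.00). The call was also lost with quantile normalization (0.18), without the trend and robust options, in a fit of the 4 libraries alone (adjusted p of 0.644, 0.305 and 0.0733) and without any one of the 4 libraries (adjusted p of 0.0634 to 0.104). The F test among the 3 codes gave F = 51.2 with an adjusted p of 3.46e-05, and 27.4% of miRNAs passed it.

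Against day 5, the last outgrowth, which was sequenced to a like depth, the ESC codes stood on opposite sides. P15 was -0.53 from day 5 on the log2 scale (95% interval -0.76 to -0.31, limma adjusted p = 0.00290; 18.2% of miRNAs called), a call lost without the trend and robust options (adjusted p = 0.135) and in a fit of the libraries compared alone (adjusted p = 0.0821). P4 was 0.49 above day 5 (95% interval 0.27 to 0.72, adjusted p = 0.00573; 14.9% called), and P2 0.09 above it (adjusted p = 0.760; 18.5% called). At equal totals P15 was -1.26 from day 5 (adjusted p = 5.21e-04), while P4 and P2 were -0.01 and -0.02 from it. The call of P4 was also lost with quantile normalization (0.17), without the trend and robust options, in a fit of its 4 libraries alone and without day 5 replicate 2 (adjusted p of 0.696, 0.208, 0.176 and 0.0540). The mean of the 3 codes was 0.02 from day 5 (95% interval -0.17 to 0.20, adjusted p = 1.00; 14.9% called).

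**Figure D2:**
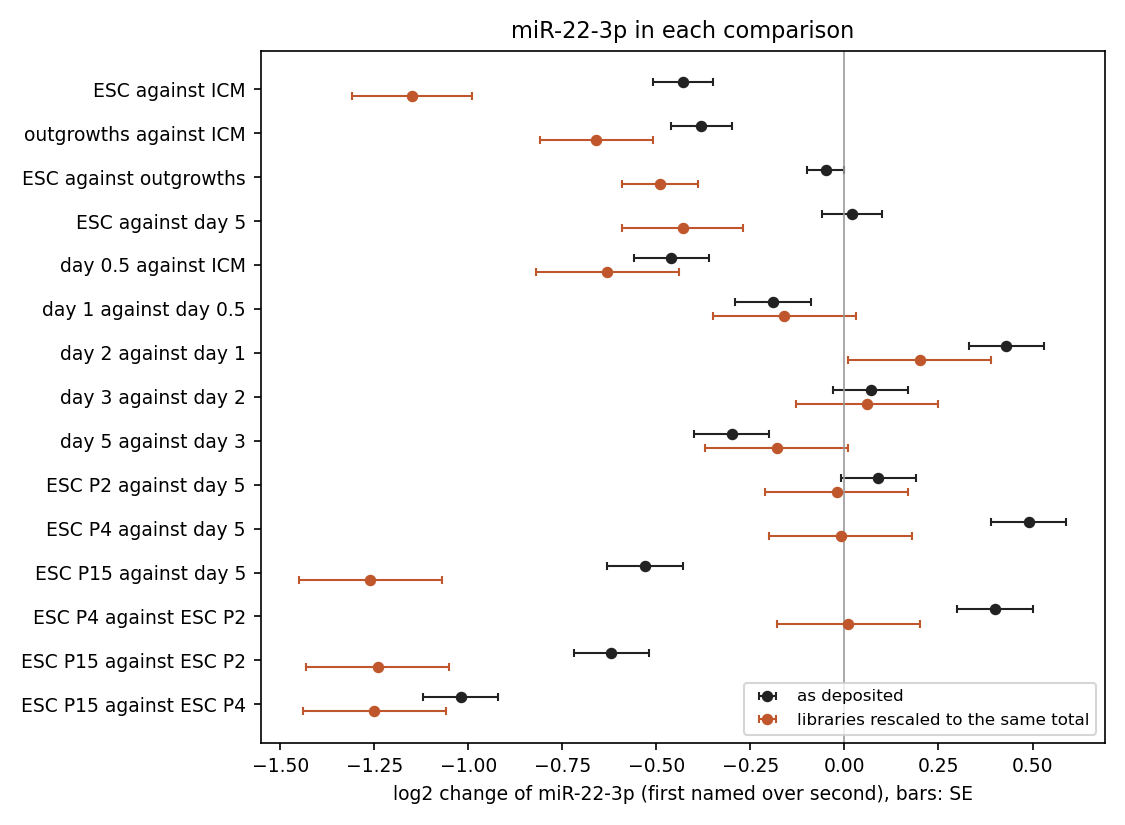
Log2 difference of miR-22-3p in each comparison, first-named group over second, as deposited (black) and after rescaling to equal totals (orange); bars are the SE from limma. ESC P15 lies below P2, P4 and day 5 on both scales, whereas the difference of P4 from P2 and day 5 is near 0 once totals are equal.

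The other arm was close to the limit of detection. miR-22-5p was listed at 0 in 11 of the 18 libraries. It was listed at 5 and 4 normalized counts in ESC P2, 4 and 6 in P4, 2 and 0 in P15, 0 and 3 at day 5, 0 and 21 at day 0.5, and at 0 in all libraries of days 1, 2 and 3 and of the ICM. The lowest value listed for any miRNA was 27 and 16 in the ICM libraries, and 9 to 24 in those of days 0.5 to 3, so an arm at the levels seen in ESC would be listed at 0 there. The 21 at day 0.5 replicate 2 is about 5.94 reads, in a library whose lowest listed value was 18.

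miR-22-5p did not pass the filter on low values and was therefore in no test with the other miRNAs, and arm balance was not tested. In a fit without the filter the log2 difference was 1.94 for ESC against ICM (SE 0.95, limma adjusted p = 0.132) and 1.29 for ESC against outgrowths (SE 0.60, adjusted p = 0.136), with a pseudocount of 1 and with the ICM and most outgrowth libraries unable to list values as low as those of ESC. Its share of the library was 3.82e-04% ± 2.65e-04 in ESC (n = 6) and 3.17e-04% ± 8.77e-04 in outgrowths (SD, n = 10; exact two-sided permutation p = 0.965). Without day 0.5 replicate 2 the difference was 3.39e-04 percentage points (exact permutation p = 0.00559), and 7 of the 9 outgrowth libraries then left came from the shallower libraries.

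In the libraries of day 5 and the ESC where both arms were listed, the 5p arm made up 0.0183% to 0.0298% of the 2 arms together, and the 3p arm exceeded it 3355-fold to 5472-fold. Over all 8 libraries of day 5 and the ESC, those with the 5p arm at 0 included, the means were 16296 normalized counts for the 3p arm and 3.00 for the 5p arm, a minor-arm share of 0.0184%. Among the 58 hairpins with both arms in the table and a major arm averaging at least 1000, miR-22 was the 6th most one-sided. The median minor arm of these hairpins was 1.27%, and 16 of them were under 0.1%. The 3p arm was the major one in 31 of the 58.

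**Figure D3:**
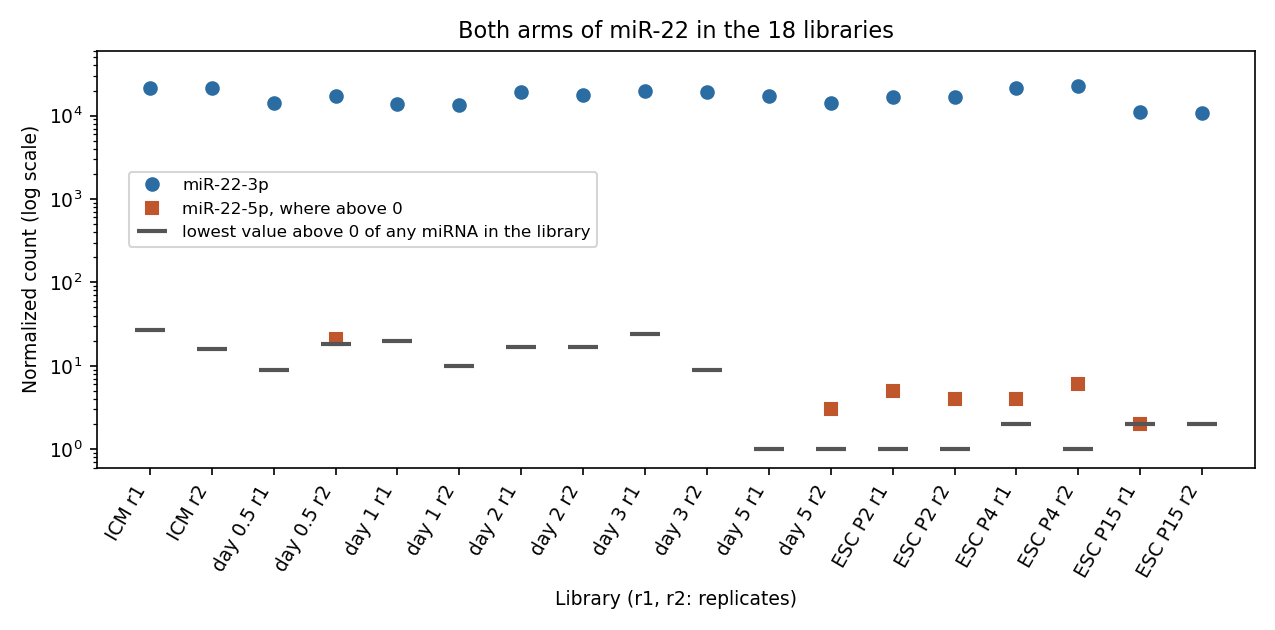
Both arms of miR-22 in each library on a log scale, in normalized counts; the 5p arm is drawn only where it is above 0, and grey bars mark the lowest value above 0 of any miRNA in that library. The 3p arm is at 10712 or more throughout, and the 5p values of day 5 and ESC lie under the listing limit of the ICM and of days 0.5 to 3.

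Set against other abundant miRNAs, miR-22-3p was among the steadiest across the derivation in the deposited values. Over the 9 group means its log2 level had an SD of 0.324, the 4th lowest of the 80 miRNAs with a mean of at least 1000 and above 0 in all libraries. The median SD of these 80 was 1.22 and the highest 2.55. Steadier were miR-378a-3p at 0.225, miR-295-3p of the ESC-typical miR-290-295 cluster at 0.271, and miR-30e-5p at 0.294. The highest group mean of miR-22-3p was above the lowest by 1.02 on the log2 scale, against a median range of 3.28. On the share scale its SD was 0.520, the 14th lowest, with a median of 1.26. These ranks are a description of the 80 miRNAs, with no test.

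**Figure D4:**
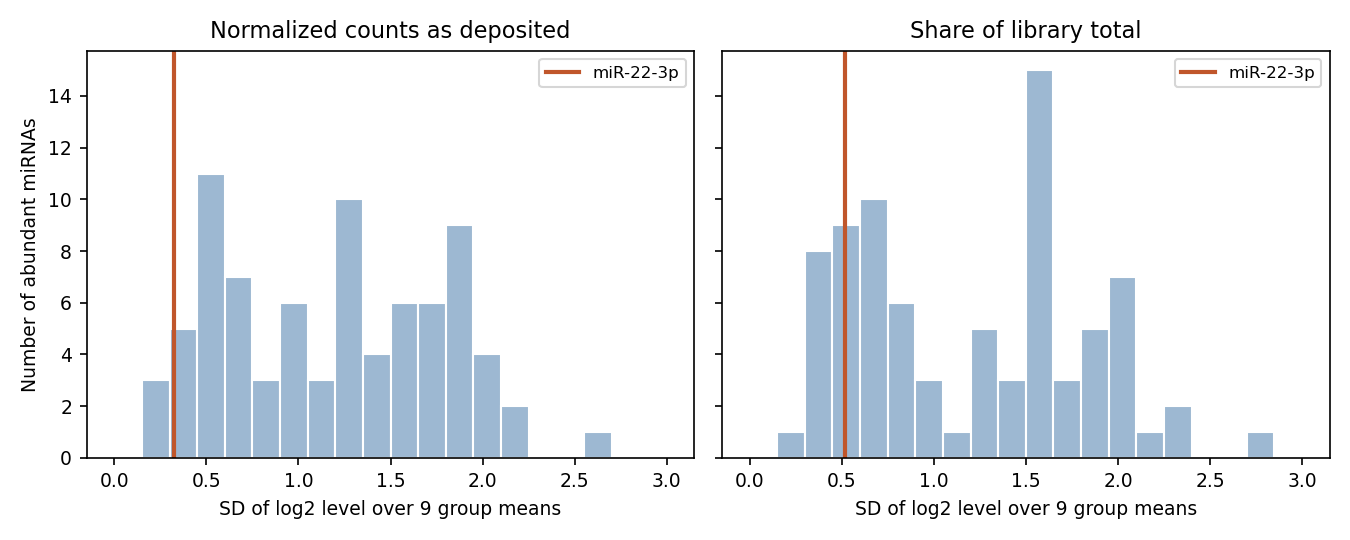
Number of abundant miRNAs by the SD of their log2 level over the 9 group means, for normalized counts (left) and shares of the library total (right); the line marks miR-22-3p. miR-22-3p lies at 0.324 in the left panel and 0.520 in the right, below the medians of 1.22 and 1.26.

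The miRNAs whose pattern was most like that of miR-22-3p over the 9 group means of log2 values, raised to a common floor of 27.2, were miR-871-5p (r = 0.75), miR-871-3p (0.72), miR-465c-5p (0.70), miR-485-3p (0.70) and miR-470-5p (0.69), among 280 candidates with a mean of at least 100. All but miR-485-3p, of chromosome 12, have their RefSeq locus on the X chromosome. Over the 18 libraries these correlations were 0.63 to 0.72. Each of these miRNAs had its ESC codes in the order of miR-22-3p in the deposited values, P4 highest and P15 lowest, with P2 at varying distance between them. miR-871-5p averaged 623 normalized counts in P4, 306 in P2 and 22.5 in P15, and miR-470-5p averaged 20616 in P4, 1778 in P2 and 1278 in P15. For miR-22-3p the P4 and P2 part of this order was lost at equal totals (log2 difference 0.01). The most opposite pattern was that of miR-1247-3p (r = -0.86), which averaged 476 in P15, 48.5 in P2 and 23.5 in P4, followed by miR-1983 (-0.70) and miR-141-3p (-0.67). All values come from the same libraries and so share their depth and scaling, and no p is attached to them.

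The miRNAs encoded nearest to Mir22 stood at far lower levels. Within 1 Mb on chromosome 11 the table holds miR-132 and miR-212, a pair known to be induced through CREB and transcribed 290 kb away, miR-3971 at 87.7 kb, and miR-6926-3p at 596 kb. miR-3971 was listed at 0 in all ESC libraries and averaged 81.5 normalized counts in the ICM (limma adjusted p = 2.49e-04). The highest mean of any neighbour was 850, for miR-212-5p at day 0.5, and its log2 difference of day 1 against day 0.5 was -7.18 (SE 1.57, adjusted p = 0.0108). Its day 1 mean lay between 10 and 20, the lowest values listed in the day 1 libraries. A value listed at 0 enters the fit with a pseudocount of 1, so the size of this difference is not read as a measured fold. miR-212-3p was listed at 0 before day 5 and averaged 12.0 to 21.5 in the ESC codes, levels within or below the range of 9 to 27 for the lowest value listed in the ICM and day 0.5 to 3 libraries. miR-132-3p averaged 0 to 45.5 in the 9 groups, miR-132-5p at most 2.50, and miR-6926-3p was listed in 1 ICM library only. The host transcript Mir22hg was not measured by these libraries.

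Other miRNAs known to repress Tet genes moved in both directions. Of the 18 in a list that includes miR-22-3p, 16 were tested, and in ESC against ICM 4 were higher and 7 lower, miR-22-3p among the lower. The median log2 difference of the 16, miR-22-3p included, was -0.40 against 0.01 over all miRNAs, and -0.26 at the common floor. Across all miRNAs tested 31.6% were called higher and 23.7% lower in that comparison. miR-26a-5p was higher, at 22563 ± 3402 normalized counts in ESC (n = 6) and 3184 ± 381 in ICM (SD, n = 2; log2 difference 2.82, limma adjusted p = 7.65e-08), whereas let-7f-5p was lower, at 668 ± 94.9 in ESC and 2908 ± 313 in ICM (-2.13, adjusted p = 7.65e-08). The members called lower beside miR-22-3p were miR-125a-5p and 5 of the let-7 family, a family of near-identical sequences whose reads may be split between its members. Those called higher beside miR-26a-5p were let-7c-5p, miR-101a-3p and miR-29a-3p, the last listed at 0 in both ICM libraries and averaging 104 ± 22.5 in ESC. The list as a whole took 3.46% to 5.35% of the library in ESC, 4.53% to 5.93% in outgrowths and 5.60% to 5.82% in ICM, of which miR-22-3p alone made up 3.41 to 3.55 points in the ICM. In outgrowths against ICM 2 were higher and 4 lower, beside 16.3% and 18.6% of all miRNAs. In ESC against outgrowths 5 were higher and 6 lower, beside 31.9% and 19.9%. At equal totals the list had 3 higher and 8 lower in ESC against ICM.

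**Figure D5:**
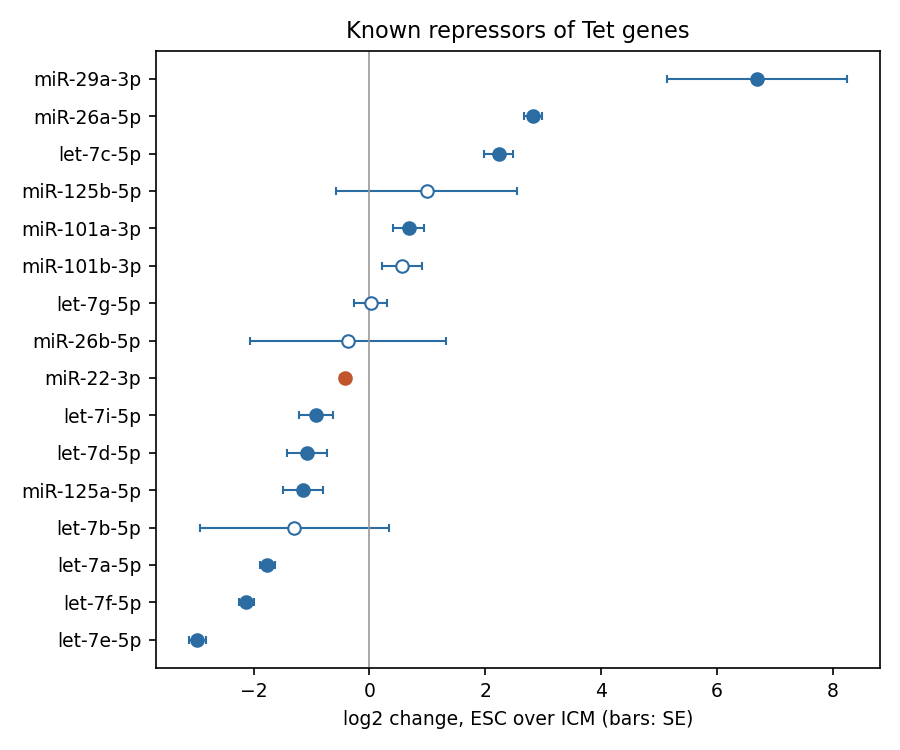
Log2 difference of ESC over ICM for the miRNAs tested among known repressors of Tet genes; bars are the SE from limma, filled points passed the threshold of 0.05 and miR-22-3p is orange. miR-22-3p is among 7 filled points below 0, and 4 filled points lie above 0.

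miR-22 has also been described as induced by p53. Of 7 other miRNAs known to be p53-induced, 6 were tested, and in ESC against ICM 3 were higher and 0 lower, beside 31.6% and 23.7% of all miRNAs; their median of 2.63 drops to 0.41 at the common floor. miR-34c-5p averaged 284 ± 153 normalized counts in ESC (n = 6) and was listed at 0 in the ICM (n = 2), and miR-34a-5p averaged 204 ± 35.5 in ESC and 31.0 ± 43.8 in ICM (SD; limma adjusted p = 0.0165). miR-192-5p did not pass the test, at 1880 ± 972 in ESC and 1770 ± 127 in ICM (adjusted p = 0.864), but it and miR-194-5p were called lower at equal totals. In outgrowths against ICM 3 were higher and 2 lower, beside 16.3% and 18.6% of all miRNAs, and 1 of the 3, miR-145a-5p, lost its call at the common floor (adjusted p = 0.425). In ESC against outgrowths 5 were higher and 1 lower, beside 31.9% and 19.9%. At equal totals 3 were higher and 1 lower, and the median of 1.84 dropped to 0.90 at the common floor.

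Since miR-22 is abundant in muscle and other tissues, markers of other cell types were read beside it. Of 4 striated-muscle miRNAs 3 were in the table, and together they took 1.65e-04% to 0.00640% of the library in ESC, 0% to 0.0188% in outgrowths and 0% to 0.0104% in ICM. The 2 tested did not pass the test in any of the 3 comparisons in the deposited values. In ESC against ICM the log2 difference was 1.37 for miR-499-5p and -0.32 for miR-133a-3p (limma adjusted p of 0.456 and 0.862). At the common floor miR-499-5p was called higher in ESC than in ICM and than in outgrowths (0.24 and 0.11, adjusted p of 0.00475 and 0.0256), and miR-133a-3p lower in ESC than in outgrowths (-0.42, adjusted p = 0.00126). In each of these comparisons both group means lay below the floor of 27.2. Values raised to the floor do not vary within a group, so these calls are not read as differences between stages. Within ESC the summed share of the striated-muscle miRNAs was 0.00626% to 0.00640% in P2 and at most 0.00193% in P4 and P15. Of 6 fibroblast and smooth-muscle miRNAs 4 were tested, with 2 higher and 1 lower in ESC against ICM, beside 31.6% and 23.7% of all miRNAs. The higher ones were miR-143-3p and miR-145a-5p, and the lower one was miR-10b-5p, at 1220 ± 1048 in ESC (n = 6) and 6832 ± 1240 in ICM (SD, n = 2). Their summed share was 0.231% to 0.380% in ESC, 0.324% to 2.27% in outgrowths and 1.18% to 1.35% in ICM. Of 6 blood miRNAs 5 were tested, with 3 higher and 1 lower in ESC against ICM, beside the same background. The higher ones were miR-142-3p, miR-142-5p and miR-150-5p, and the lower one was miR-486-5p, at 237 ± 165 in ESC (n = 6) and 2288 ± 382 in ICM (SD, n = 2). Their share was 0.0846% to 0.271% in ESC, 0.0752% to 0.424% in outgrowths and at least 0.374% in ICM. The 6 pluripotency-typical 3p arms of the miR-290-295 cluster were present throughout, at 3.65% to 9.22% in ESC, 2.67% to 7.39% in outgrowths and 6.24% to 7.76% in ICM. By share P2 (7.90% to 9.22%) lay above both ICM libraries, and P4 (3.65% to 5.78%) and P15 (4.17% to 4.67%) below them. In the deposited values 3 were higher and 0 lower in ESC against ICM. In ESC against outgrowths 6 were higher and 0 lower, beside 31.9% and 19.9% of all miRNAs, and at equal totals 3 were higher. The summed fibroblast and blood shares were lower in ESC than in the ICM. In the deposited values miR-10b-5p and miR-486-5p were the only members of the fibroblast and blood lists called lower, and the others tested were called higher in ESC or not called. Of those not called, miR-199a-3p averaged 109 ± 60.8 in ESC and 538 ± 323 in ICM (log2 difference -2.36, limma adjusted p = 0.0516). It was called lower at the common floor (adjusted p = 0.0388), at equal totals and with quantile normalization. Since other members were called higher, the sums do not stand for their lists as a whole. Any part of these cell types in the difference of miR-22-3p was not tested. In bulk libraries fewer cells of a type and less RNA per cell cannot be told apart.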

How the data were processed

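Small RNA was taken with a PureLink miRNA kit, made into TruSeq Small RNA libraries and sequenced on a GAIIx, per the labels' protocols. The deposited table holds a score per mature miRNA and library: counts normalized by the authors and rounded to whole numbers, so not raw counts. The submitters' processing notes name cutadapt, DESeq2 1.30.0 and mm10; for the aligner, the counter and the miRNA release, no name is given in the sources used here. Values were tested as log2(value + 1) with limma 3.58.1 (R 4.3.3, trend and robust), 9 groups fitted together, over the 811 of 1390 miRNAs with at least 10 in at least 2 libraries. Benjamini-Hochberg adjustment covered all 811, with a threshold of 0.05. Averages over days or ESC codes weight groups equally. Shares were compared by an exact permutation test over libraries. The common floor of 27.2 is 5 reads in the shallowest library. Reads were inferred from the spacing of low values, and Poisson errors cover counting error only; the 95% intervals are limma's, from the spread between libraries. The fit was run on simulated data with changes planted in ESC only, larger than most of those reported for miR-22-3p. That run does not show how well the fit finds differences as small as these. The members, lists and tests were chosen with earlier results of these data known. Named miRNAs were both arms, the 5 highest and 3 lowest correlations with miR-22-3p, neighbours within 1 Mb, and list members. Some marker names were matched to the table's older names after the table was seen. Other examples from the lists were chosen after their values were seen. Sequences are from RefSeq (GRCm38.p6) and the locus from GENCODE vM21. A further list of miRNAs is not reported here.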

Additional observations from a re-analysis of the deposited data

Results flagged for a closer look

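miR-22-5p at day 0.5 replicate 2 stood apart from the other 9 outgrowth libraries, at 21.0 normalized counts and 0.00279% of the library, where the next highest count was 3. The gap to the nearest library was 0.857 of the whole range for the count and 0.863 for the share, above Dixon's 95% critical value for 10 libraries. The shallower outgrowth libraries list no value under 9, and 8 of the 10 outgrowth values are 0, so nearly any value listed there would stand apart in this way. Chance flags about 1 in 20 groups. In the deposited values miR-22-3p differed in opposite directions between ESC P15 and day 5 (-0.53 on the log2 scale) and between ESC P4 and day 5 (0.49). The test of the difference itself, P15 against P4, gave -1.02 (limma adjusted p = 1.48e-05). The P4 side depended on the scaling: P4 was -0.01 from day 5 at equal totals and 0.17 with quantile normalization, neither called.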

How the results depend on the processing

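Of the values recomputed under the alternatives, 529 were labelled unchanged, 46 lost a call, 6 gained one, 12 changed direction and 2 counts of miRNAs called moved by over 1.5 times. Unchanged meant the same direction and side of the threshold for a difference, the same side for an F test, and within 1.5 times for a count. Many runs left out a library of a group outside the comparison, which cannot move its log2 difference, so the total does not measure robustness. For each change the cause was not tested. ESC against ICM lost its call at -0.43 both with array weights (adjusted p = 0.155) and without trend and robust options (0.0574), and at -0.16 without P15. Outgrowths against ICM lost it at -0.38 under the same 2 settings (0.397 and 0.0999). ESC against outgrowths became -0.49 at equal totals and -0.29 without P4, both called, and turned to 0.22 without P15. ESC against day 5 turned to -0.43 at equal totals, -0.21 with quantile normalization, -0.02 without P2 and -0.22 without P4, and ran from -0.12 (without day 5 replicate 2) to 0.15 when each library was left out. With quantile normalization day 1 against day 0.5 turned to 0.11. P2 against day 5 turned to -0.02 at equal totals and -0.01 with quantile normalization, and ran from -0.05 to 0.22 without each library. P4 against day 5 turned to -0.01 at equal totals. Array weights called 250 miRNAs in ESC against ICM and 61 in outgrowths against ICM, where the reported fit called 448 and 283. The difference in miR-22-3p share between ESC and outgrowths was -0.118 points without P15 and -0.548 without day 5, and -0.682 to -0.356 without each library. That of miR-22-5p turned to -2.71e-05 without P2.

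Same-numbered replicates showed little tendency to deviate together: over 36 pairs of groups their correlation was -0.36 to 0.24, and 3 exceeded 0.1. Low values and unequal depth enter these correlations, so they cannot exclude that the numbers pair the libraries. With the number as a replicate block, miR-22-3p differed by -0.43 in ESC against ICM (adjusted p = 0.00176), -0.38 in outgrowths against ICM (0.00524) and -0.05 in ESC against outgrowths (0.492), and no call changed. The planned test of arm balance was not run, since miR-22-5p did not pass the filter on low values. Depth limits what can be said of miR-22-5p before day 5.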
